A study of Mus musculus with 20 samples.

Results

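The genes followed here are a module of the cell cycle and of DNA replication, measured in endothelial cells sorted from mouse ears. The module was written as 43 gene symbols. For each symbol the probe set that the platform annotation gives to that symbol alone was taken, and where a gene had more than 1, the one with the highest mean over all arrays. Of the 43, 41 were found among 22180 genes with such a probe set. Ccne2 shared its probe set with other symbols and Ccnb1 was not matched, and neither was analysed here. The members were sorted by role into 6 G1 genes, 2 inhibitors of cyclin-dependent kinases, 15 replication genes and 18 genes of mitosis and its cyclins.

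The study set endothelial cells of inflamed ears against those of vehicle-treated ears, in control mice and in mice with an activated Notch1 receptor in endothelium. The labels give 6 control arrays with vehicle, 6 control arrays with the skin hapten DNFB (dinitrofluorobenzene), 4 NICD vehicle arrays and 4 NICD DNFB arrays. NICD mice, titled NICD1-EC-OE, express the intracellular domain of Notch1 from the Rosa26 locus once an inducible Cre is active in endothelium. Their genotype label is Pdgfb-CreERT2; R26-NICD, whereas the growth protocol names a CDH5-iCre driver, and the sources used here do not settle which it was. Age is not given, and neither is whether the control mice carried Cre or transgene alone. The protocol, written for all samples, gives 5 tamoxifen injections, DNFB on the skin on days 0 and 1, DNFB on the ear on day 5 and harvest 24 hours later. It does not say whether the mice that gave the vehicle-treated ears were sensitised. The titles do not say whether these were the same mice that gave the DNFB-treated ears. CD31+CD45-Ter119- cells were sorted from the digested ears, and 1 ng of their RNA was amplified. Nothing states whether an array holds 1 mouse or several, so p-values measure the spread between these samples.

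A cell that leaves rest first raises D-type cyclins, which activate Cdk4 and so release E2F transcription factors from the retinoblastoma protein, while p27 (Cdkn1b) and p21 (Cdkn1a) restrain the kinases. E2F factors drive the genes that license replication origins, open the helix and supply nucleotides. Genes of mitosis follow later in the cycle under a separate control that is read through CHR and CCAAT elements of their promoters. Most endothelial cells of adult skin are at rest.

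Values are log2 RMA values (robust multi-array average), so that a difference of 1 is a 2-fold change. A difference passed where its limma p, adjusted by Benjamini and Hochberg over 23521 probe sets with 1 symbol, was under 0.05. Of the 41 members, 39 exceeded the median of the array in 4 or more arrays. Bub1 and Cenpf lay above it on 0 of 20 arrays, so their values cannot be told from low signal. Correlation between replicate arrays of a group ran from 0.965 to 0.984.

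The sort was checked on markers. All 12 pan-endothelial markers lay above the array median on every array, but their level moved with DNFB. In control mice 9 of 12 fell (median difference -0.55) and their mean lay at 10.26 to 10.51 with vehicle and 9.47 to 9.90 with DNFB, without overlap. In NICD mice 5 fell and 1 rose (median -0.31), and the mean lay at 10.17 to 10.34 with vehicle and 9.75 to 10.01 with DNFB. Markers of other cells were present too. The mean of 11 keratinocyte markers ran from 6.04 to 7.23 in control mice with vehicle and 7.16 to 9.14 with DNFB, and in NICD mice from 6.46 to 7.19 with vehicle and 7.54 to 8.18 with DNFB. A few genes carried that rise. Krt6a, Krt16 and Krt17, keratins of activated epidermis, rose by 3.31 to 5.93 in the genotypes and Krt14 by 0.56 in control mice, while Krt15 fell in both. The median over the 11 was 0.44 in control mice, where 4 rose, 1 fell and 8 of 11 were above 0. In NICD mice it was -0.21, where 3 rose, 1 fell and 5 of 11 were above 0. The mean of 12 macrophage markers ran from 3.80 to 4.29, 4.60 to 5.54, 3.76 to 3.82 and 4.39 to 5.07 in the same order, and 2 to 7, 6 to 12, 4 to 6 and 8 to 11 of them lay above the array median. The mean of 12 neutrophil markers went from at most 3.37 in vehicle arrays to at least 4.29 in DNFB arrays, and the mean of 10 pericyte and smooth muscle markers was at most 8.34 in DNFB and at least 8.47 in vehicle arrays. Of 5 platelet markers, 5 rose in control (median difference 1.10) and 2 in NICD mice (0.62). The mean of 8 fibroblast markers ran in control mice from 6.60 to 7.38 with vehicle and 7.33 to 8.28 with DNFB. In NICD mice it ran from 6.76 to 7.39 with vehicle and 6.55 to 7.60 with DNFB. Of the 8, 3 rose in control (median difference 0.58) and 2 in NICD mice (0.01). Of 9 T and NK cell markers, 2 rose in control (0.19) and 1 in NICD mice (0.10). The mean of 6 lymphatic endothelial markers ran in control mice from 7.10 to 7.92 with vehicle and 7.73 to 8.24 with DNFB. In NICD mice it ran from 8.18 to 9.48 with vehicle and 8.385 to 9.25 with DNFB. Of the 6, 1 rose in control mice (median difference -0.13), and 1 rose and 2 fell in NICD mice (-0.51). The part of these marker shifts in the DNFB differences of the members was not tested. Ptprc, the gene of the CD45 antigen used to remove leukocytes, rose with DNFB by 1.21 in control and 1.56 in NICD mice (adjusted p 0.000857 and 0.000728). Each genotype was of 1 sex (Xist 2.27 to 3.16 in control and 8.47 to 9.07 in NICD arrays) and the lowest value of an array lay at 0.412 to 0.590 in control and 1.18 to 1.30 in NICD arrays, so genotype, sex and array set cannot be told apart. Notch1 itself averaged 9.82 and 9.76 in control and 9.71 and 9.76 in NICD arrays. A probe set of Notch1 may also lie outside the transgene and then checks nothing.

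The labels of NICD vehicle replicate 4 contradict each other, since its description names DNFB treatment and its title vehicle. The title was followed. Without this array all 41 members kept their call for DNFB in NICD mice, passed or not. Some single values without it are given where stated, and all others include it.

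The promoters of the genes that carry the results below differ in the elements named above. RefSeq start sites (GRCm38.p6) were at hand for 34 of the 43 symbols, Ccnb1 among them, and the 250 bases before the start were searched on both strands. For E2F the letters TTGGCGC were searched, with TTCCCGC also counted, then TTGCCGC likewise and finally TTCGCGC. For the CHR element TTTGAA was searched, with TTCGAA also counted, and for the CCAAT box its own letters. Matches of different letters were allowed to overlap, and a match to these letters describes the sequence without showing that a factor binds it. Shown are 3 replication genes that rose in both genotypes and hold the E2F-type letters (Mcm5, Mcm6, Hells). Beside them stand 2 mitosis genes that hold CHR and CCAAT (Top2a, Mki67), and Cdkn1b, which fell most. The elements are not exclusive, since Mki67 also holds an E2F-type match and Mcm5 and Mcm6 also hold CCAAT. Capitals mark the matches, read 5′ to 3′ on the gene's strand. The windows are chr8:75109259-75109508 (plus strand) for Mcm5, chr1:128359706-128359955 (minus) for Mcm6, chr19:38930740-38930989 (plus) for Hells, chr11:99024190-99024439 (minus) for Top2a, chr7:135716380-135716629 (minus) for Mki67 and chr6:134920151-134920400 (plus) for Cdkn1b.
Mcm5: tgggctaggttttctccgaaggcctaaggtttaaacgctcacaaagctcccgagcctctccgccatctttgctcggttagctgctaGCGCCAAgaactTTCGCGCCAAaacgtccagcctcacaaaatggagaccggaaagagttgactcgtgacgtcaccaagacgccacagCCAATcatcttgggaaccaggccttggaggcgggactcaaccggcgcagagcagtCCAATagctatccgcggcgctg
Mcm6: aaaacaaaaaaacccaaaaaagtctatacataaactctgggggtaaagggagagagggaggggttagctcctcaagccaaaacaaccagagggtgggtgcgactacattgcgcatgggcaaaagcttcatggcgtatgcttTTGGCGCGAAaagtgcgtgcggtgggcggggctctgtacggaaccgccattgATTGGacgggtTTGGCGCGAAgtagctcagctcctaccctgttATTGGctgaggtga
Hells: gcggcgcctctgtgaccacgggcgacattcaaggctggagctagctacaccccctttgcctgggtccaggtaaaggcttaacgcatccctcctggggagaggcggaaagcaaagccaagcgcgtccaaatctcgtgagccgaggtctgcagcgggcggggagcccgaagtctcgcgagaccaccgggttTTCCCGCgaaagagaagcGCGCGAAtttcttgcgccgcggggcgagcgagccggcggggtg
Top2a: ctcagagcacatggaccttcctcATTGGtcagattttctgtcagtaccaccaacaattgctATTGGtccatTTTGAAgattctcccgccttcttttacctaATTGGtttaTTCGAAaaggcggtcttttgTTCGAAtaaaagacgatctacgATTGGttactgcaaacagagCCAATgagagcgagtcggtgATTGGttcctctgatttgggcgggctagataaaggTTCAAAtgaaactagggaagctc
Mki67: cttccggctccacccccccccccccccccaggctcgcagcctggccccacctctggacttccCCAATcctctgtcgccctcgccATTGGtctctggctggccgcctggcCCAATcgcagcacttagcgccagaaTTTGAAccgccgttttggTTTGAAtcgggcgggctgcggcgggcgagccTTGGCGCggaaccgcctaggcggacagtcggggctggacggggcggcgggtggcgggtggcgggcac
Cdkn1b: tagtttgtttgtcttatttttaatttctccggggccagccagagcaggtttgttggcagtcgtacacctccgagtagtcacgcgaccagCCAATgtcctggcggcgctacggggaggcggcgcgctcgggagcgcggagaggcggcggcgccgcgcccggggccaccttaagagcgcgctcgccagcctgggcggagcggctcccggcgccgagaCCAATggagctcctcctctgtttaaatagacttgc

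E2F-type letters stood before 8 of 13 replication members (61.5%) and 3 of 15 mitosis members (20%), against 9.01% of the promoters of all 27025 genes. CHR letters stood before 8 of 15 mitosis members (53.3%) and 2 of 13 replication members (15.4%), against 19.6% of all genes. Each of those 8 mitosis members also held CCAAT. CHR and CCAAT together stood in 7.93% of all promoters. CCAAT, with or without the other elements, was found before 14 of 15 mitosis members and 9 of 13 replication members, against 37.5% of all genes. Within the replication members, E2F-type letters were in 5 of 8 promoters of genes that rose with DNFB in both genotypes, as described below, and in 3 of 5 of those that passed in neither.

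In control mice, the members that rose with DNFB were mostly replication genes. Of the 41 members, 16 rose, 2 fell and 23 did not pass, with a median difference of 0.33. Among all 23521 probe sets 14.7% rose and 14.4% fell, and among those whose mean lay above the mean array median, as that of 34 members did, 23.5% rose and 23.8% fell. By role, 9 of 15 replication members rose (median difference 0.45), as did 4 of 18 mitosis members (0.23) and 3 of 6 G1 members (0.20), while 1 G1 member and 1 inhibitor fell. DNFB and vehicle arrays did not overlap for 7 members that were higher, against 8.77% of all probe sets, and for 2 that were lower, against 8.43%.

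In NICD mice 13 members rose, 2 fell and 26 did not pass, with a median difference of 0.32. Over all probe sets 11.5% rose and 10.4% fell, and 19.7% and 17.7% among those above the mean array median. The rises were again in 9 of 15 replication members (median difference 0.76), with 1 of 18 mitosis members (0.20), 2 of 6 G1 members and Cdkn1a. DNFB and vehicle arrays did not overlap for 17 higher members, 12 of them replication genes, against 13.4% of all probe sets, and for 2 lower members, against 11.6%. Without NICD vehicle replicate 4 the same 15 members passed, and of their differences that of Ccnd1 moved most, by 0.28.

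**Figure D1:**
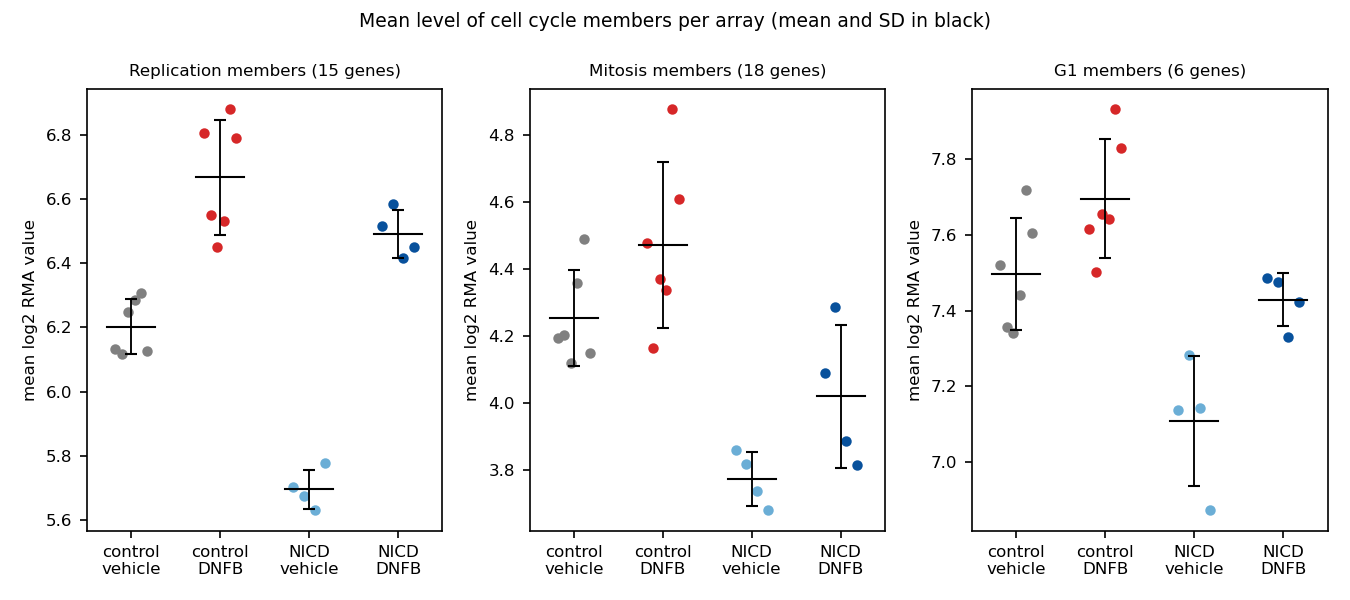
Mean log2 RMA value over the 15 replication, 18 mitosis and 6 G1 members on each array (points), with the group mean and SD (black), for 12 control and 8 NICD arrays; vertical scales differ. The replication mean of every DNFB array lies above that of every vehicle array of the same genotype, while the mitosis means overlap in both genotypes.

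The mean over the 15 replication members ran from 6.12 over a median of 6.19 to 6.31 in control vehicle arrays and from 6.45 over 6.67 to 6.88 in control DNFB arrays. It ran from 5.63 to 5.78 in NICD vehicle and from 6.42 to 6.59 in NICD DNFB arrays. The groups were thus apart in both genotypes. The mean over the 18 mitosis members ran from 4.12 over 4.20 to 4.49 in control vehicle and from 4.16 over 4.42 to 4.88 in control DNFB arrays, which overlap. In NICD mice it ran from 3.68 to 3.86 with vehicle and from 3.81 to 4.29 with DNFB, also with overlap. Levels of the genotypes are not to be set against each other here, since the array sets differ in scale.

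The highest replication and mitosis means among control DNFB arrays were both those of replicate 5, which also had the highest keratinocyte mean (9.14) and the highest macrophage mean (5.54) of its group. NICD DNFB replicate 2 stood highest in its group in the same measures, with a keratinocyte mean of 8.18 and a macrophage mean of 5.07. Both arrays were also highest in their groups for fibroblast markers (8.28 and 7.60) and for T and NK cell markers (4.05 and 3.68). The neutrophil mean was highest in control DNFB replicate 1 (5.22) and NICD DNFB replicate 4 (4.68). Which markers set the means of these 2 arrays apart, and their part in the replication and mitosis means, was not tested. In cells sorted in bulk, fewer cells of a type and less RNA per cell cannot be told apart. Without control DNFB replicate 5, 11 members rose and 3 fell in control mice. Without NICD DNFB replicate 2, 12 rose and 2 fell in NICD mice.

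**Figure D2:**
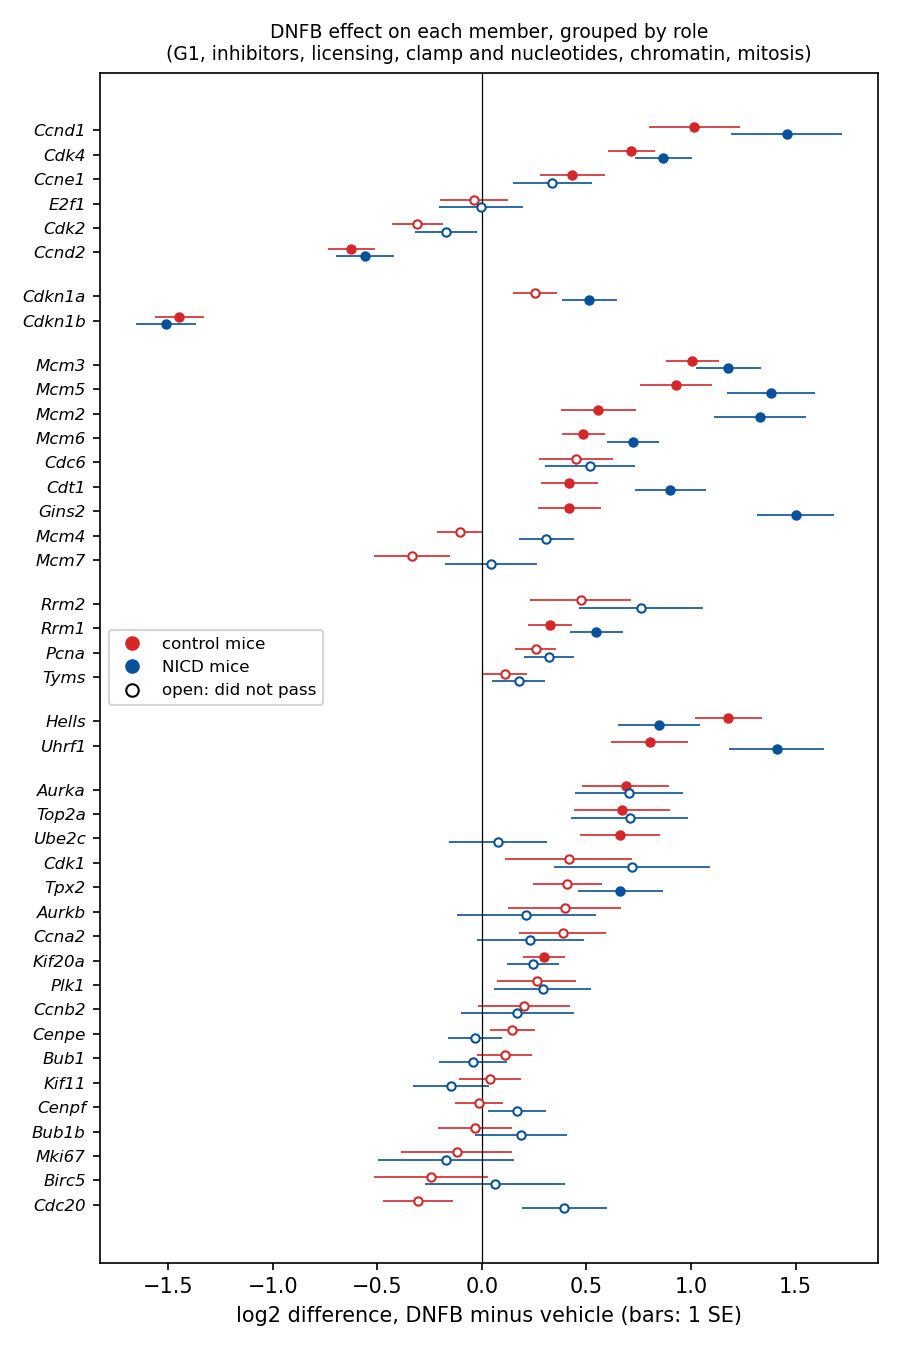
Log2 difference between DNFB and vehicle (points; bars are 1 SE of the limma fit) for each of the 41 members in control mice (red) and NICD mice (blue), grouped by role and filled where adjusted p was under 0.05. Most replication genes lie to the right of 0 in both genotypes, mitosis genes mostly lie nearer to 0, and Cdkn1b and Ccnd2 lie to the left. The roles also differ in signal. Bub1, Bub1b, Birc5, Aurkb, Cenpe, Cenpf and Kif11 averaged under the mean array median, and every replication gene above it.

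At the entry to the cycle, Ccnd1 and Cdk4 rose and Ccnd2 fell in both genotypes. Ccnd1, the gene of cyclin D1, ran from 7.13 over a median of 7.76 to 8.58 in control vehicle and from 8.51 over 8.70 to 9.17 in control DNFB arrays. Its NICD vehicle values were 8.06, 7.80, 7.75 and 6.76, and its NICD DNFB values 9.08, 9.09, 9.17 and 8.85. Control groups touched through 1 high vehicle array, and NICD groups were apart. DNFB raised it by 1.01 ± 0.22 (SE) in control mice, 2.02-fold (adjusted p 0.00091), and by 1.46 ± 0.27 in NICD mice (0.000269), where it was 1.18 without NICD vehicle replicate 4 (0.00126).

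Cdk4, the kinase that D-type cyclins activate, ran from 8.42 over 8.50 to 8.79 in control vehicle and from 9.03 over 9.25 to 9.66 in control DNFB arrays. In NICD mice it was 8.47, 8.71, 8.48 and 8.28 with vehicle and 9.44, 9.40, 9.37 and 9.19 with DNFB. No vehicle array reached a DNFB array of its genotype, and the rises were 0.71 ± 0.11 (adjusted p 2.92e-05) and 0.87 ± 0.14 (5.24e-05).

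Ccnd2, the gene of cyclin D2, went the other way. It ran from 10.20 over 10.61 to 10.70 in control vehicle and from 9.68 over 9.97 to 10.11 in control DNFB arrays. NICD vehicle arrays held 10.15, 10.30, 10.46 and 9.82, and NICD DNFB arrays 9.60, 9.67, 9.57 and 9.67. Every DNFB array was below every vehicle array of its genotype, and Ccnd2 fell by 0.62 ± 0.11 in control (adjusted p 0.000161) and by 0.56 ± 0.14 in NICD mice (0.00452).

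Of the other G1 members, Ccne1 (cyclin E1) rose in control mice by 0.43 ± 0.15 (adjusted p 0.0374), and its difference in NICD mice was 0.34 ± 0.19 (0.25). The control call was lost in 6 of 20 fits that left out 1 array, those without control DNFB replicates 1, 5 or 6 or control vehicle replicates 1, 2 or 3 (adjusted p 0.0592 to 0.102). Cdk2, the partner of cyclin E, had differences of -0.31 ± 0.12 and -0.17 ± 0.15 that did not pass (0.0619 and 0.516). The transcript of E2f1, an activating E2F factor, differed by -0.04 ± 0.16 in control and by under 0.01 in size in NICD mice (0.902 and 0.992).

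Among the kinase inhibitors, Cdkn1b had the lowest DNFB difference of any member in both genotypes. It ran from 7.74 over 8.04 to 8.13 in control vehicle and from 6.42 over 6.53 to 6.70 in control DNFB arrays. In NICD mice it was 7.44, 8.02, 7.61 and 7.62 with vehicle and 5.88, 6.15, 6.12 and 6.51 with DNFB. DNFB arrays lay well below vehicle arrays throughout. Cdkn1b fell by 1.45 ± 0.12 in control mice (adjusted p 4.19e-09) and by 1.51 ± 0.14 in NICD mice (9.54e-08), and by 1.53 without NICD vehicle replicate 4.

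Cdkn1a, the p21 gene, which p53 and other stress signals induce, ran from 11.40 over 11.64 to 11.68 in control vehicle and from 11.67 over 11.85 to 12.07 in control DNFB arrays. Its NICD values were 10.84, 11.28, 11.30 and 11.45 with vehicle and 11.74, 11.78, 11.57 and 11.84 with DNFB. The control groups just overlapped and the NICD groups did not. The difference of 0.25 ± 0.11 in control mice did not pass (adjusted p 0.0831), and Cdkn1a rose by 0.51 ± 0.13 in NICD mice (0.00541). The difference between these effects, 0.26, did not pass.

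**Figure D3:**
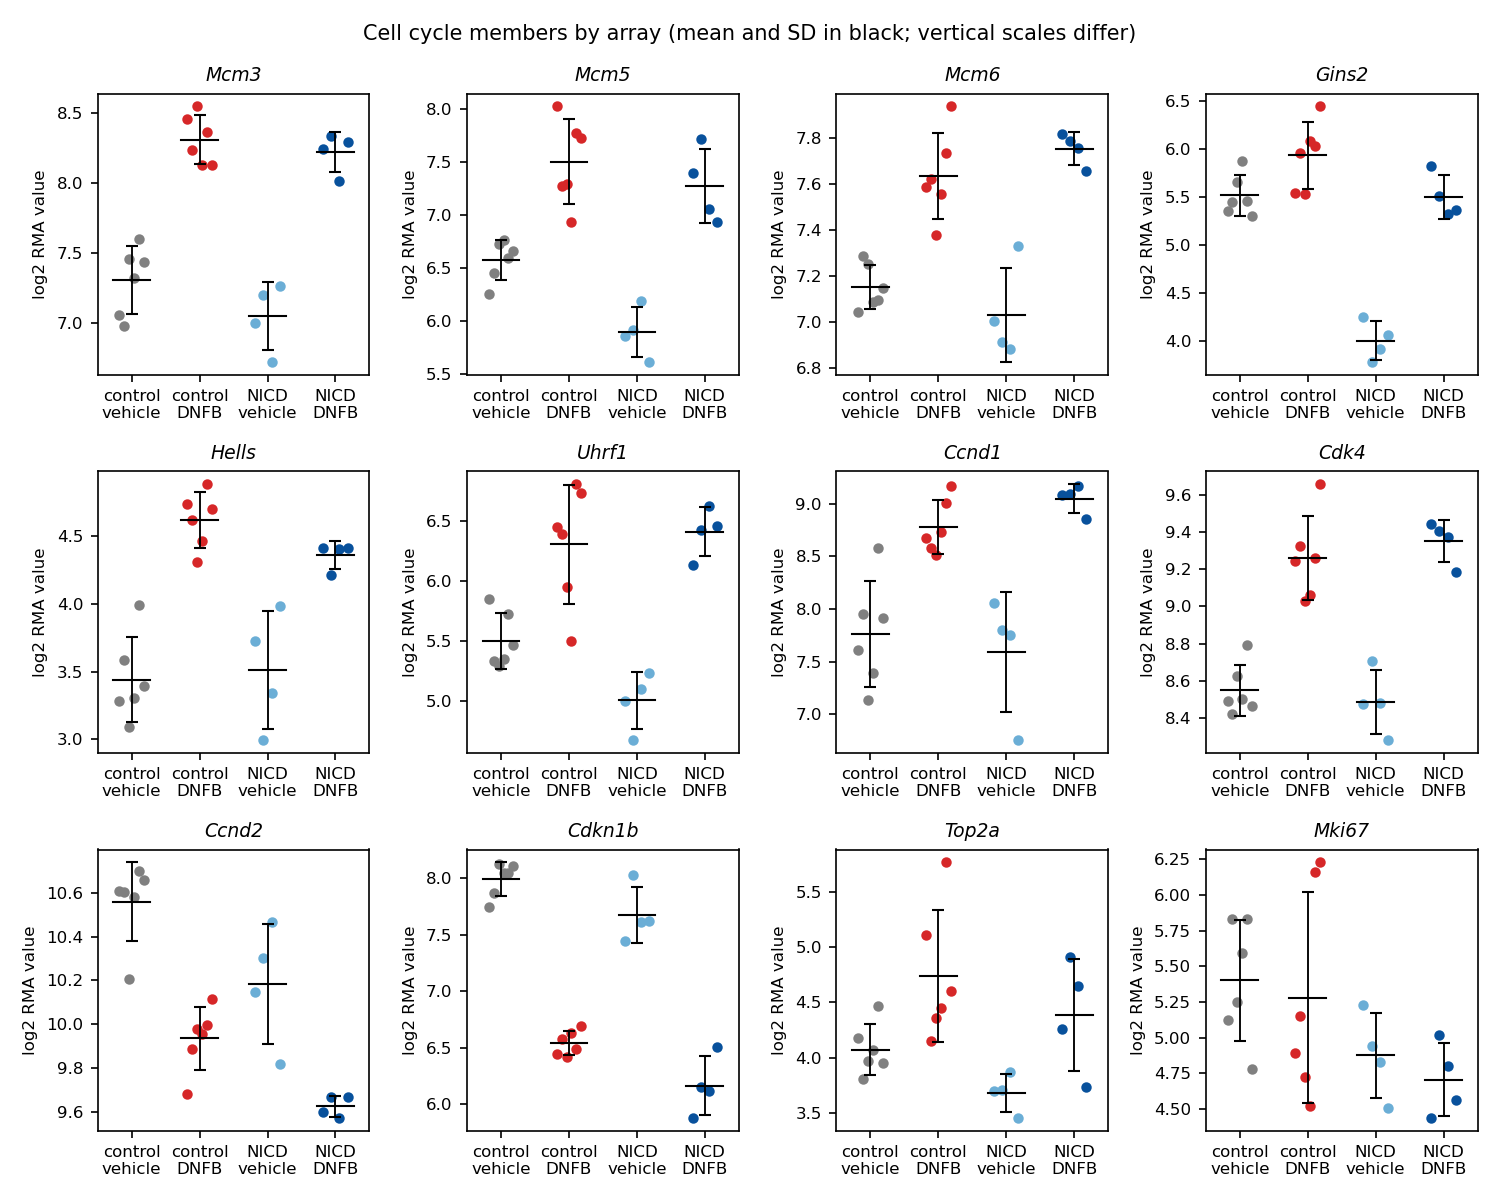
Log2 RMA value of 12 members on each array (points), with the group mean and SD (black), for 12 control and 8 NICD arrays; vertical scales differ between panels. Mcm3, Mcm5, Mcm6, Hells, Cdk4 and, downward, Ccnd2 and Cdkn1b separate DNFB from vehicle arrays in both genotypes. Gins2, Uhrf1 and Ccnd1 do so in NICD mice alone, and Top2a and Mki67 in neither.

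Of 9 members of origin licensing and the replicative helicase, 6 rose in each genotype (Mcm2, Mcm3, Mcm5, Mcm6, Cdt1 and Gins2). Mcm3, a subunit of the MCM helicase ring, ran from 6.97 over 7.38 to 7.60 in control vehicle and from 8.13 over 8.30 to 8.55 in control DNFB arrays. NICD vehicle arrays held 6.999, 7.20, 6.72 and 7.26, and NICD DNFB arrays 8.25, 8.34, 8.01 and 8.29. All DNFB arrays were above all vehicle arrays. Mcm3 rose by 1.01 ± 0.13 in control mice (adjusted p 1.81e-06) and by 1.18 ± 0.15 in NICD mice (5.76e-06).

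Mcm5, another subunit of the ring, ran from 6.25 over 6.63 to 6.76 in control vehicle and from 6.93 over 7.51 to 8.03 in control DNFB arrays. It was 5.86, 5.92, 6.18 and 5.61 in NICD vehicle and 7.39, 7.71, 7.06 and 6.93 in NICD DNFB arrays. The groups were again apart, and the rises were 0.93 ± 0.17 (adjusted p 0.000195) and 1.38 ± 0.21 (3.26e-05). Mcm6 ran from 7.04 over 7.12 to 7.29 in control vehicle and from 7.38 over 7.61 to 7.94 in control DNFB arrays. Its NICD values were 7.004, 6.91, 6.88 and 7.33 with vehicle and 7.82, 7.79, 7.76 and 7.66 with DNFB. No arrays of opposite treatment overlapped, and the rises were 0.49 ± 0.10 (0.000818) and 0.72 ± 0.13 (0.000159). The windows of Mcm5 and Mcm6 printed above hold 3 and 4 E2F-type matches, and that of Mcm3 holds 0.

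The subunits of the ring did not all rise. Mcm2 rose by 0.56 ± 0.18 in control (adjusted p 0.0223) and 1.33 ± 0.22 in NICD mice (9.16e-05). Mcm4 had differences of -0.11 ± 0.11 and 0.31 ± 0.13 (0.525 and 0.109), and Mcm7 of -0.34 ± 0.18 and 0.04 ± 0.22 (0.189 and 0.937), none of which passed. The control call of Mcm2 was lost without control DNFB replicate 1, control DNFB replicate 5 or control vehicle replicate 1 (0.0558, 0.0628 and 0.0601).

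Gins2, a subunit of the GINS complex that joins the helicase at the fork, ran from 5.31 over 5.46 to 5.88 in control vehicle and from 5.54 over 6.00 to 6.45 in control DNFB arrays. It was 4.26, 3.79, 3.92 and 4.07 in NICD vehicle and 5.83, 5.51, 5.32 and 5.36 in NICD DNFB arrays. Control groups overlapped, whereas the NICD groups were over 1 log2 unit apart. The rise was 0.42 ± 0.15 in control mice (adjusted p 0.0407) and 1.50 ± 0.18 in NICD mice (2.53e-06). The control call was lost in 8 of 20 fits that left out 1 array, those without control DNFB replicates 2, 4, 5 or 6 or control vehicle replicates 1, 2, 5 or 6 (0.0639 to 0.112).

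Cdt1, which loads the helicase onto origins, rose by 0.42 ± 0.14 in control (adjusted p 0.0249) and 0.90 ± 0.17 in NICD mice (0.000353). Its control call was lost in 5 of 20 such fits, those without control DNFB replicates 4, 5 or 6 or control vehicle replicates 2 or 5 (0.0519 to 0.0694). Cdc6, its partner in loading, had differences of 0.45 ± 0.18 and 0.52 ± 0.22 that did not pass (0.0609 and 0.1).

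Of the clamp and nucleotide genes, 1 of 4 rose. Rrm1, the large subunit of ribonucleotide reductase, ran from 6.18 over 6.28 to 6.44 in control vehicle and from 6.46 over 6.57 to 6.83 in control DNFB arrays. In NICD mice it was 5.64, 5.32, 5.38 and 5.63 with vehicle and 6.25, 5.87, 5.81 and 6.23 with DNFB. The groups did not overlap in either genotype, and the rises were 0.33 ± 0.10 (adjusted p 0.0201) and 0.55 ± 0.13 (0.00264).

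Pcna, the sliding clamp of the polymerases, ran from 10.19 over 10.41 to 10.51 in control vehicle and from 10.44 over 10.66 to 10.86 in control DNFB arrays. Its NICD values were 9.73, 10.09, 9.91 and 9.99 with vehicle and 10.15, 10.26, 10.21 and 10.38 with DNFB. The differences of 0.26 ± 0.10 and 0.32 ± 0.12 just missed the threshold (adjusted p 0.0516 and 0.0591), although the NICD groups were apart. They passed in 5 and 6 of 11 alternative fits and in 4 and 1 of 20 that left out 1 array. Rrm2, the small subunit of the reductase, ran from 3.76 over 4.57 to 4.93 in control vehicle and from 3.86 over 4.99 to 5.61 in control DNFB arrays. It was 3.87, 4.28, 4.11 and 4.14 in NICD vehicle and 4.63, 5.04, 4.89 and 4.88 in NICD DNFB arrays. Control groups overlapped widely and NICD groups did not, and neither difference passed, at 0.47 ± 0.24 (0.165) and 0.76 ± 0.30 (0.0755). Rrm2 had 2 probe sets, of which the higher is given. Over 11 alternative fits, which include the mean of both, its difference ran from 0.23 to 0.49 in control mice, where 0 passed. In NICD mice it ran from 0.48 to 0.79, and 3 passed. Tyms (thymidylate synthase) differed by 0.11 ± 0.10 and 0.18 ± 0.13 (0.487 and 0.412).

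Both genes that act on chromatin in S phase rose. Hells, a chromatin remodeller, ran from 3.09 over 3.35 to 3.99 in control vehicle and from 4.31 over 4.66 to 4.88 in control DNFB arrays. Its NICD values were 3.73, 3.00, 3.34 and 3.99 with vehicle and 4.41, 4.21, 4.41 and 4.41 with DNFB. Groups were apart, and the vehicle values lay low on the array, above its median on 1 of 6 control and 2 of 4 NICD arrays. The rises were 1.18 ± 0.16 (adjusted p 5.06e-06) and 0.85 ± 0.20 (0.00248).

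Uhrf1, which recruits the maintenance methyltransferase to new DNA, ran from 5.29 over 5.41 to 5.85 in control vehicle and from 5.50 over 6.42 to 6.81 in control DNFB arrays. NICD vehicle arrays held 5.00, 4.68, 5.10 and 5.23, and NICD DNFB arrays 6.13, 6.43, 6.62 and 6.46. Control groups overlapped through the lowest DNFB array, and NICD groups were apart. The rises were 0.80 ± 0.18 (adjusted p 0.00169) and 1.41 ± 0.23 (6.13e-05).

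Of 18 mitosis members, 4 rose in control mice (Aurka, Top2a, Ube2c and Kif20a) and 1 in NICD mice (Tpx2). Aurka, the Aurora A kinase of the spindle poles, ran from 4.65 over 5.21 to 5.32 in control vehicle and from 5.41 over 5.72 to 6.17 in control DNFB arrays. It was 4.36, 4.49, 4.07 and 4.13 in NICD vehicle and 5.37, 5.40, 3.86 and 5.21 in NICD DNFB arrays. Control groups were apart, and in NICD mice replicate 3 with DNFB fell below the vehicle arrays while the other 3 were above them. The rise was 0.69 ± 0.21 in control mice (adjusted p 0.0154), and the difference of 0.70 ± 0.26 in NICD mice did not pass (0.0551). That NICD difference passed in 7 of 11 alternative fits (adjusted p 0.0172 to 0.125 over them) and in 1 of 20 that left out 1 array.

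Top2a, the topoisomerase that untangles chromosomes, ran from 3.80 over 4.02 to 4.47 in control vehicle and from 4.15 over 4.53 to 5.77 in control DNFB arrays. Its NICD values were 3.69, 3.70, 3.87 and 3.45 with vehicle and 4.25, 4.91, 4.65 and 3.73 with DNFB. Groups overlapped in both genotypes, with 1 high DNFB array in control mice. The rise was 0.67 ± 0.23 in control mice (adjusted p 0.0298), lost without control DNFB replicates 1 or 5 or control vehicle replicates 2, 3 or 6 (0.054 to 0.0783). The NICD difference of 0.71 ± 0.28 did not pass (0.079). It passed in 4 of 11 alternative fits (adjusted p 0.0136 to 0.126 over them) and in 2 of 20 that left out 1 array.

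Ube2c, a ubiquitin-conjugating enzyme of the anaphase-promoting complex, ran from 3.72 over 4.22 to 4.89 in control vehicle and from 4.51 over 4.86 to 5.37 in control DNFB arrays. It was 4.00, 3.80, 3.36 and 3.36 in NICD vehicle and 3.42, 4.16, 3.71 and 3.55 in NICD DNFB arrays. Groups overlapped, partly in control and widely in NICD mice. Ube2c rose by 0.66 ± 0.19 in control mice (adjusted p 0.0112), and its NICD difference was 0.08 ± 0.24 (0.889). The difference between the effects, -0.58, did not pass.

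Kif20a, a kinesin of the dividing cell's midzone, ran from 3.78 over 3.87 to 4.17 in control vehicle and from 3.94 over 4.21 to 4.37 in control DNFB arrays. It was 3.44, 3.72, 3.46 and 3.65 in NICD vehicle and 3.91, 3.83, 3.81 and 3.72 in NICD DNFB arrays. The groups overlapped in control mice and met at 1 array each in NICD mice. The rise of 0.30 ± 0.10 in control mice (adjusted p 0.028) was lost without control DNFB replicates 3, 4 or 5 or control vehicle replicates 3, 4 or 5 (0.0556 to 0.0691), and the NICD difference was 0.24 ± 0.12 (0.188).

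Tpx2, which activates Aurora A on the spindle, rose by 0.66 ± 0.20 in NICD mice (adjusted p 0.0207) and differed by 0.41 ± 0.17 in control mice (0.0717). The NICD call was lost without NICD DNFB replicates 1 or 2 or NICD vehicle replicate 2 (0.0757, 0.0755 and 0.0762), and held without NICD vehicle replicate 4 (0.042).

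Mki67, whose protein Ki-67 is the usual stain for cycling cells, did not separate the treatments. It ran from 4.78 over 5.42 to 5.83 in control vehicle and from 4.53 over 5.03 to 6.23 in control DNFB arrays. It was 5.23, 4.94, 4.83 and 4.51 in NICD vehicle and 4.44, 5.02, 4.80 and 4.56 in NICD DNFB arrays. The control DNFB arrays spread more widely than the vehicle arrays and reached both above and below them. The differences were -0.12 (95% interval -0.67 to 0.43) in control and -0.17 (-0.84 to 0.50) in NICD mice (adjusted p 0.793 and 0.81), so that a change of up to 0.84 in size is not shown to be absent.

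The other 13 mitosis members passed in neither genotype. These were the cyclin genes Ccna2 and Ccnb2 with their kinase Cdk1, the checkpoint and anaphase genes Bub1, Bub1b and Cdc20, the kinases Aurkb and Plk1, Birc5 of the chromosomal passenger complex, the centromere proteins Cenpe and Cenpf, the kinesin Kif11, and Mki67. Their control differences ran from -0.30 in Cdc20 to 0.41 in Cdk1, and their NICD differences from -0.17 in Mki67 to 0.72 in Cdk1. Cdk1, the kinase of mitotic entry, had NICD DNFB values of 5.21, 4.29, 3.91 and 3.90. Birc5, Aurkb, Bub1b, Cenpe and Kif11, besides Bub1 and Cenpf, averaged under the mean array median over the 20 arrays.

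The same reading was made on pathway genes outside the module. Of 33 other replication genes, 7 rose and 0 fell in control mice, and 9 rose and 0 fell in NICD mice (medians 0.11 and 0.42). Pola2, the regulatory subunit of polymerase alpha, rose by 1.01 ± 0.14 and 1.46 ± 0.17 (adjusted p 5.78e-06 and 1.25e-06). Dbf4, the activator of the Cdc7 kinase, rose by 0.59 and 0.61, and Orc6 of the origin recognition complex by 0.48 and 0.74. The share that rose was 21.2% in control and 27.3% in NICD mice, beside 14.7% and 11.5% of all probe sets. Among probe sets above the mean array median 23.5% and 19.7% rose, so the control share lay under that figure.

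Of 43 other mitosis genes, 7 rose (16.3%) and 3 fell (6.98%) in control mice, beside 14.7% and 14.4% of all probe sets. In NICD mice 3 rose and 3 fell (6.98% each), beside 11.5% and 10.4%. The shares that rose were thus near or under those of all probe sets, and the genes named here are single cases. Aspm, a spindle pole protein, rose by 0.74 ± 0.14 in control mice (adjusted p 0.000389), Cdca5, which keeps sister chromatids together, by 0.63, and the kinase gene Melk by 0.45. The phosphatase gene Cdc25b fell by 0.97 and 0.63 in control and NICD mice, the centromeric histone gene Cenpa by 0.94 and 0.85, and the condensin subunit Smc4 by 0.31 and 0.38.

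Regulators of the G1 to S step moved both ways. Of 20, 5 rose (25%) and 7 fell (35%) in control mice, beside 14.7% and 14.4% of all probe sets. In NICD mice 4 rose (20%) and 5 fell (25%), beside 11.5% and 10.4%. Among probe sets above the mean array median 23.5% rose and 23.8% fell in control mice, and 19.7% and 17.7% in NICD mice. The shares that rose thus lay near those figures. Tfdp1, the usual partner of E2F factors, rose by 1.01 ± 0.11 and 0.77 ± 0.14 (adjusted p 3.67e-07 and 0.000208), E2f4 by 0.52 and 0.64 and E2f5 by 0.52 and 0.49. The retinoblastoma gene Rb1 fell by 1.02 ± 0.10 and 0.61 ± 0.12 (5.82e-08 and 0.00056). Its relative Rbl2, a pocket protein of resting cells, fell by 1.45 and 1.13, and the alternative E2F partner Tfdp2 by 1.33 and 1.46.

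Of 17 other inhibitors and p53 targets, 4 rose (23.5%) and 7 fell (41.2%) in control mice, beside 14.7% and 14.4% of all probe sets. In NICD mice 4 rose (23.5%) and 8 fell (47.1%), beside 11.5% and 10.4%. Among probe sets above the mean array median 23.5% rose and 23.8% fell in control mice, and 19.7% and 17.7% in NICD mice. The shares that rose were thus at or near those figures. The p53 targets Zmat3, Mdm2 and Ccng1 rose by 0.72, 0.61 and 0.68 in control mice and by 0.57, 0.43 and 1.11 in NICD mice. Cdkn2d, an inhibitor of Cdk4, fell by 1.07 ± 0.11 and 0.90 ± 0.14 (adjusted p 2.18e-07 and 4.5e-05). Trp53inp1, which is also a p53 target, fell by 1.96 and 1.05, and the stress gene Gadd45g by 0.65 and 0.52, so that p53 targets were found on both sides.

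The DNFB effects of the genotypes rest on separate arrays and can be set side by side. Over the 41 members they had Pearson's r of 0.85 and Spearman's rho of 0.83, a description over genes that share their arrays. They had the same sign in 32. Of the members that rose, 11 did so in both genotypes, 5 in control mice alone and 2 in NICD mice alone. The signed difference of the effects, NICD minus control, was above 0 for 29 of 41 members (70.7%), for 14 of 15 replication members and for 9 of 18 mitosis members, beside 51.6% of all probe sets. A value above 0 is not always a larger effect, since Mcm7 went from -0.34 to 0.04 and Ccnd2 from -0.62 to -0.56. In size the effect was larger in NICD mice for 27 members, 13 of them replication genes, beside 49.5% of all probe sets.

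The difference of the effects was tested in the same limma fit, and 0 of 41 members passed, as did 1 of all 23521 probe sets (0.00425%). At an unadjusted p under 0.05 there were 6 members (Gins2, Mcm2, Cdc20, Mcm4, Cdt1 and Uhrf1), each with the larger value in NICD mice, where 7.99% of all probe sets had such a p. Gins2 had the greatest difference, 1.08 ± 0.24 (95% interval 0.59 to 1.58, adjusted p 0.175). Calls in 1 genotype alone are therefore not shown to differ between genotypes, and sex and array set would enter this difference too.

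Levels in NICD and control mice were compared after each array was centred on the median of its probe sets with 1 symbol. Endothelial markers moved with the same comparison. All 6 lymphatic endothelial markers were higher in NICD mice, in vehicle ears (median difference 1.58) and in DNFB ears (1.34), and with values as deposited 5 and 4 of 6 were (1.17 and 0.90). Of 12 pan-endothelial markers 5 were higher in vehicle and 10 in DNFB ears (medians 0.28 and 0.60), but 0 and 3 with values as deposited (-0.12 and 0.16). The part of these shifts in the members' values was not tested. In vehicle ears 3 members were higher and 4 lower in NICD mice, where 27.7% of all probe sets were higher and 3.58% lower. In DNFB ears 9 were higher and 2 lower, where 34.8% were higher and 4.55% lower. The median difference of all probe sets was 0.22 and 0.26 in these fits. With values as deposited, when it was -0.19 and -0.18, 0 members were higher and 19 lower in vehicle ears, and 0 higher and 12 lower in DNFB ears. Of 22 members called under any of 4 scalings in vehicle ears, 3 were called under all 4 with the same sign, and of 21 in DNFB ears, 2 were.

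In vehicle ears those 3 were Gins2, Rrm1 and Cdk2. Gins2 had a difference of -1.105 ± 0.17 (adjusted p 7.04e-05), and from -1.51 to -1.105 over the scalings. After this centring its NICD vehicle arrays lay from -0.14 to 0.30 and control vehicle arrays from 0.96 to 1.49, without overlap, and it passed in all 20 fits that left out 1 array. Rrm1 had a difference of -0.385 ± 0.12 (0.0169, and -0.79 to -0.385 over the scalings), with centred values of 1.39 to 1.68 in NICD and 1.80 to 2.09 in control arrays. It was lost without NICD vehicle replicates 2 or 3 (0.0638 and 0.0554). Cdk2 had a difference of -0.36 ± 0.14 (0.0478, and -0.77 to -0.36), and its centred values overlapped, at 3.06 to 3.42 and 3.16 to 3.95. Its call is marginal, since it was lost in 16 of 20 fits that left out 1 array (0.0512 to 0.137), among them that without NICD vehicle replicate 4 (0.0993), and in 5 of 12 other alternatives (0.0509 to 0.0815). E2f1, at 0.23 to 0.64 in NICD and 0.48 to 1.32 in control vehicle arrays after centring, was called lower (-0.49 ± 0.18, 0.0437). It was lost after quantile normalization (0.0735), without NICD vehicle replicate 4 (0.13) and in 8 of 20 such fits in all. Bub1, Hells and Cdk4 were called higher only with the arrays centred on their medians, by 0.54 ± 0.15, 0.48 ± 0.17 and 0.345 ± 0.13, and the calls of Hells and Cdk4 were lost in 6 and 10 of 20 such fits, that of Hells without NICD vehicle replicate 4 too (0.18).

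In DNFB ears Ube2c and Cenpe were lower in NICD mice under all 4 scalings. Ube2c had a difference of -0.77 ± 0.21 (adjusted p 0.00731, and -1.21 to -0.77 over the scalings) and passed in all 20 fits that left out 1 array. After centring it was at -0.51 to 0.23 in NICD DNFB and 0.18 to 1.06 in control DNFB arrays, which overlap slightly. Cenpe, a kinesin of the kinetochore, had a difference of -0.36 ± 0.12 (0.0199), with centred values of -0.85 to -0.43 and -0.45 to 0.02. It lay above the median of all probe sets on 0 of 4 NICD DNFB arrays, and its call was lost without NICD DNFB replicate 3 (0.0907) and with the replicate number as a fixed block (0.0594). Cdc20, an activator of the anaphase-promoting complex, was at 2.38 to 2.74 in NICD DNFB and 1.13 to 2.15 in control DNFB arrays after centring. It was higher by 0.82 ± 0.18 (0.00123), and past the threshold under 3 of 4 scalings, not as deposited (0.117). Mcm2 and Ccnd1, higher by 0.71 ± 0.20 and 0.71 ± 0.24, were not called under the other 3 scalings.

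**Figure D4:**
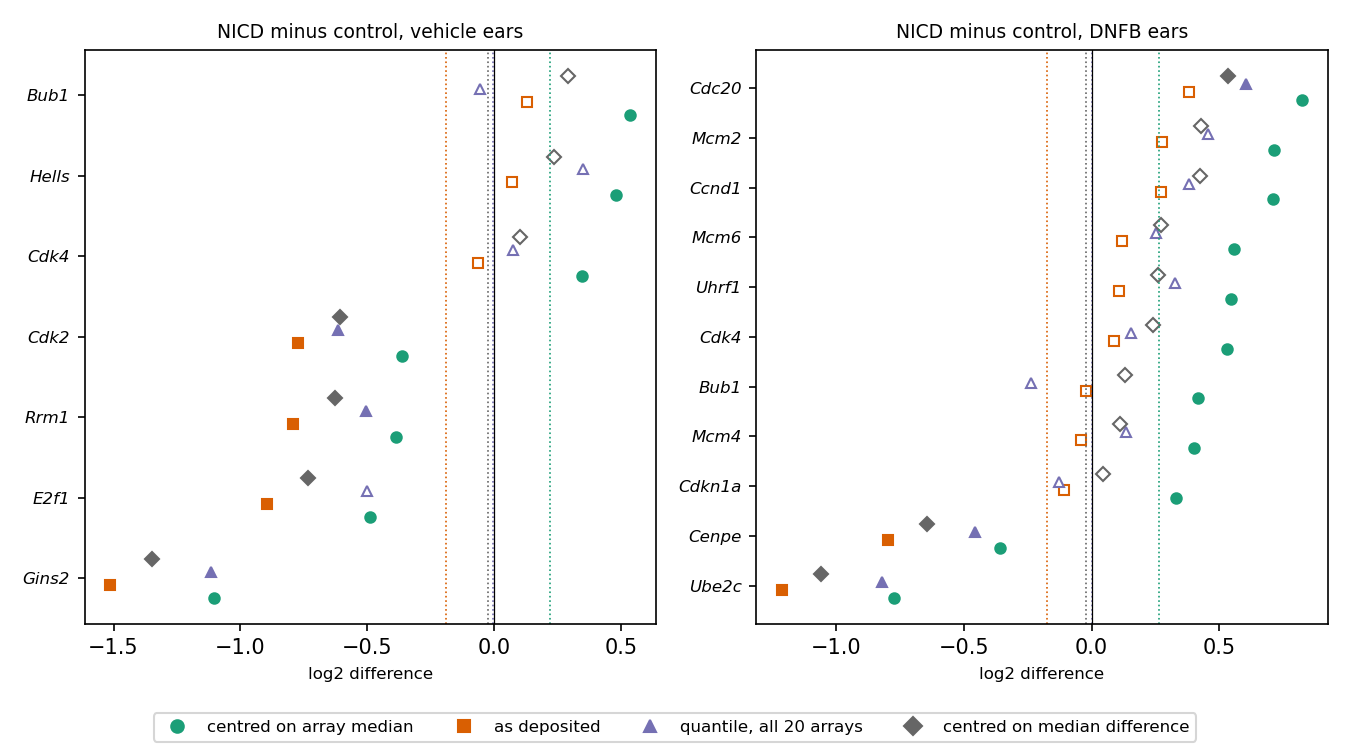
Log2 difference between NICD and control arrays in vehicle ears (left) and DNFB ears (right) for the members called with arrays centred on their medians, under 4 scalings (symbols, filled where adjusted p was under 0.05); dotted lines are the median difference of all 23521 probe sets under each. Gins2, Rrm1 and Cdk2 in vehicle ears and Ube2c and Cenpe in DNFB ears are filled throughout, and members drawn to the right change with the scaling.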

How the data were processed

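The deposited values are log2 values per probe set of an Affymetrix mouse gene array, made by the authors with RMA in Affymetrix Expression Console per the submitters' processing notes. Versions and options are not given in the sources used here, and raw intensities were not used. The table held 41345 probe sets, of which 23521 had 1 gene symbol, 1814 several and 16010 none. The number of arrays limits the precision.

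The members and gene lists were chosen with earlier results of these data known, so counts of them are descriptions. Groups came from the sample titles. The 4 group means were estimated together from the 20 arrays in limma 3.58.1 (lmFit, eBayes; R 4.3.3), without a filter on low values, with Benjamini-Hochberg adjustment over 23521 probe sets and a threshold of 0.05. Effects of DNFB and their difference used values as deposited. NICD was compared with control after each array was centred on the median of these probe sets.

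Values of single arrays were named for Mki67, Top2a, Ccnd1, Cdkn1a, Cdkn1b, the 3 members of each role with the smallest p for DNFB in control mice, and the 3 highest and 3 lowest members between genotypes. Cdk1 and Gins2 with DNFB were named after their values were seen. From each pathway list up to 3 genes a direction were named. The code was run on simulated arrays with independent noise and few changed probe sets. That setting is simpler than these data, so the run does not bear on the calls made here. Figures used matplotlib 3.10.9 in Python 3.11.15. Replicate numbers were checked for pairing, and deviations of same-numbered arrays correlated from 0.044 to 0.197. Not every pair was over 0.1, and the numbers were not used as pairs. That cut is not a test of pairing, so pairs may exist. Best matches and fits with a replicate block are given below.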

Additional observations from a re-analysis of the deposited data

Results flagged for a closer look

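In 12 of 164 checks of a member within a group (7.32%), 1 array stood far from the others by Dixon's criterion at 95%, where chance gives about 5% of checks. It did so in 0 of 12 checks of the mean over the members, the replication members or the mitosis members. Among replication genes, Cdc6 was lowest in control vehicle replicate 6, at 3.30 against 4.05 in the next array, and in NICD vehicle replicate 2, at 3.52 against 3.92. Cdt1 was highest in the same control vehicle replicate 6, at 5.73 against 5.31. Pcna was lowest in control vehicle replicate 2, at 10.19 against 10.40. Hells was lowest in NICD DNFB replicate 2, at 4.21 against 4.41.

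Among mitosis genes, Aurka was lowest in NICD DNFB replicate 3, at 3.86 against 5.21, which is the array that kept it from separating the NICD groups. Bub1b was highest in NICD DNFB replicate 2, at 4.21 against 3.44. Ccnb2 was lowest in control vehicle replicate 3, at 4.06 against 4.87. Cdc20 was lowest in NICD vehicle replicate 4, the array with conflicting labels, at 5.44 against 6.15. Kif11 was lowest in control DNFB replicate 3, at 3.38 against 3.96, and Tpx2 in control DNFB replicate 2, at 4.53 against 5.11. Of the G1 genes, Ccnd2 was lowest in control vehicle replicate 3, at 10.20 against 10.58.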

How the results depend on the processing

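The count of members called for DNFB was 18 in control mice, 15 to 23 over the alternatives and 14 to 20 with 1 array left out. In NICD mice it was 15, with 15 to 19 and 14 to 17. The difference of the effects called 0 members in each of these fits. Of the 18 control calls, 12 were kept in every fit, and of the 15 NICD calls, 14. Some members that had not passed did so in other fits. Besides Aurka, Top2a, Pcna and Rrm2, these included Cdk2, Cdkn1a, Cdc6 and Tpx2 in control mice (5, 4, 3 and 3 of 11 alternatives). With the replicate number as a fixed block, 17, 16, 0, 6 and 10 members were called (DNFB in control, DNFB in NICD, their difference, NICD against control in vehicle and in DNFB ears), and with a random replicate block 20, 17, 0, 7 and 11, at a consensus correlation of 0.0678 for deposited and 0.0786 for centred values. Among the vehicle arrays of its genotype, every NICD DNFB array deviated most like that of its own number, as did 4 of 6 control DNFB arrays. This is a hint from the data and not from the design.

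Levels between genotypes depended on the processing. The 7 members called in vehicle ears became 4 with either filter on low values, 4 with only the groups compared, 19 with values as deposited and 3 to 8 with 1 array left out. The 11 called in DNFB ears became 5 after quantile normalization, 7 with arrays centred on the median difference from the mean array, which was chosen after seeing the data, and 8 to 12 with 1 array left out. Signs reversed for Cdk4 (-0.0625 as deposited) and Bub1 (-0.0557 after quantile normalization) in vehicle ears, and in DNFB ears for Cdkn1a (-0.13 after quantile normalization, -0.11 as deposited), Mcm4 (-0.0404 as deposited) and Bub1 (-0.23 and -0.0218). The cause of these changes was not tested. In 34 further cases the sign of a difference that had not passed changed. Limiting the fit to the groups compared was not run for the difference of effects, which needs all groups. Members near the array median, mostly of mitosis, are limited by low signal.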
